A study of Mus musculus with 5 samples.

Results

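Peroxisomes are small organelles that shorten very long and branched fatty acids, begin the synthesis of ether lipids and break down the hydrogen peroxide their oxidases make. They are built by peroxins, the products of the Pex genes, which insert membrane proteins, import folded enzymes from the cytosol and drive the growth and division of the organelle. In fat, peroxisomes lie close to lipid droplets and supply ether lipids, and in liver of rodents they multiply when the fatty acid receptor PPARα is activated.

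For this account 31 genes of the organelle were taken by name, 13 Pex genes and 18 enzymes and membrane transporters or channels, out of 53700 genes in the first deposited table and 55416 in the second. All 31 were listed in both. RNA sequencing of mouse inguinal white adipose tissue, a subcutaneous fat depot, gave 1 library per group. The first table held floxed mice injected with phosphate-buffered saline (the vehicle), floxed mice injected with T3, the active thyroid hormone, and ATRβKO mice injected with T3. These mice ate normal food, received 7 daily injections and were killed 24 hours after the last, and each library pooled fat from 3 mice. Floxed mice carry the receptor gene between recombination sites and are the control genotype. ATRβKO mice lack thyroid hormone receptor β (gene Thrb) in adipocytes, as the series title and sample names have it, so cells other than adipocytes keep the receptor. The labels name neither the recombinase line nor the age or sex of the animals. The second table held floxed and ATRβKO mice kept for 2 to 3 months on a high-fat diet (HFD), and whether these were pooled is not stated.

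With 1 library per group, animal-to-animal variation is unknown here and no p-value is given. Values are FPKM, fragment counts scaled to transcript length and library size, which can be compared between genes. Where 3 values follow each other they stand in the order vehicle, T3 and labelled ATRβKO (T3), called the 3 libraries below. From the value that 1 fragment took in short single-exon genes, depth was estimated at 12200000, 12900000 and 13300000 fragments in the 3 libraries and 20300000 in floxed HFD. Every one of the 31 genes was at 1 FPKM or more in these 4 libraries. The thinnest, Pex11g, stood on about 118 fragments in its lowest library of the first table, where counting alone gives a relative SD of 9.22%, and Pxmp2 on about 154, with 8.06%. Thrb was at 4.44, 4.43 and 4.26 FPKM, which does not check the genotype label, as a gene-level value also counts a shortened transcript and other cells. The library labelled ATRβKO (HFD) differed 2-fold or more from floxed HFD in 79.7% of 17711 genes (47.7% higher). It enters no comparison here apart from the values flagged at the end.

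All 10 adipocyte markers were present and summed to 26880, 20478, 24335 and 34794 FPKM, floxed HFD coming last. For T3 over vehicle their median log2 ratio was -0.11 and 1 was called, Cfd (adipsin), which was lower at 11233 and 4783 FPKM, whereas Adipoq (adiponectin) stood at 1498 and 781 and Fabp4 (a fatty acid binding protein) at 10033 and 11288. Markers of other cells also differed between libraries. The summed level of 13 skeletal muscle markers was 2816, 617, 2847 and 12914 FPKM in the same order, that of 10 T cell markers 305, 135, 239 and 16.1, that of 10 macrophage markers 2031, 1480, 2554 and 1293, and that of 8 fibroblast and progenitor markers 2406, 1548, 3060 and 2459. The 9 brown or beige fat markers summed to 454, 1406, 274 and 318 FPKM. The 5 B cell markers summed to 322, 194, 285 and 2.41 FPKM, the 7 endothelial markers to 248.7, 308, 246 and 234, and the 5 erythroid markers to 1423, 1909, 2186 and 3456. The 6 mammary epithelial markers summed to 1.58, 1.40, 3.02 and 0.17 FPKM, with Krt14 and Elf5 at 0 in vehicle. In bulk tissue fewer cells of a type and less RNA per cell cannot be told apart, and the part of these other cells in the values below was not tested.

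Acaa1a and Acaa1b, both on chromosome 9, encode the 3-ketoacyl-CoA thiolases that cut the shortened chain in the last step of peroxisomal β-oxidation, and they are near-identical copies. Their coding sequences, taken from GENCODE M21 transcripts, were 1275 bases each and identical at 1231 of them (96.5%). The stretch with the most differences, coding bases 433 to 552, is shown to let the copies be told apart, with the 14 differing bases in capitals.
Acaa1a: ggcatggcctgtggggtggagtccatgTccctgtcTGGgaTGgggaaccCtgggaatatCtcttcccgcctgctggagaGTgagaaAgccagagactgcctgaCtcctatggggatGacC
Acaa1b: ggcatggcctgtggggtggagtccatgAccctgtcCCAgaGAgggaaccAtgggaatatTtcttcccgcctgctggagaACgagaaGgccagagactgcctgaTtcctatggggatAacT
Of all 100-base stretches in the Acaa1a transcript, 21.6% occurred in another gene, Acaa1b, so reads can be split between the pair. For the Acaa1b transcript the share was 30.5%, with Acaa1a and Dlec1. Dlec1 lies on the opposite strand over 11.4% of the exon bases of Acaa1b. Shared stretches were also frequent in Hacl1 (52.7%, with the overlapping gene Gm49387), Pex11g (46.9%, with Gm44775 on the opposite strand), Scp2 (32.2%, with the copies Scp2-ps2 and Gm47162), Pex14 (18.1%) and Acot8 (13.8%), and the sources used here do not state whether strand was counted. Values of these 7 genes are uncertain to that extent. In Pxmp2, the gene that differed most below, 3.40% of such stretches were shared, with Gm15788, which lies on the opposite strand over 10.8% of its exon bases.

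Pex11a and Ehhadh are textbook targets of PPARα in rodent liver, and their promoters are shown for the receptor half-site they hold. The 250 bases before the start of each gene come from RefSeq on build GRCm38.p6, with the half-site GGGTCA (here read as its complement) in capitals. Pex11a lies at chr7:79743132-79743381 on the minus strand and Ehhadh at chr16:21787835-21788084 on the minus strand.
Pex11a: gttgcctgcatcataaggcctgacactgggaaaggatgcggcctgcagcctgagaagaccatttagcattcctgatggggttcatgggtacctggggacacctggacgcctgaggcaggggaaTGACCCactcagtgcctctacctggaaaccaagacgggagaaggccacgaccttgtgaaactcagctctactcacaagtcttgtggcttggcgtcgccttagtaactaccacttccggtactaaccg
Ehhadh: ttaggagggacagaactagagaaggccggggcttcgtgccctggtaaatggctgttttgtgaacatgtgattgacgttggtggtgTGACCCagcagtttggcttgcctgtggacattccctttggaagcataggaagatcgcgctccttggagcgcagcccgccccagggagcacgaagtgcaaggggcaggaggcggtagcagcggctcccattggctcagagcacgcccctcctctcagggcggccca
Counted from the start of the gene, the half-site began at position -127 in Pex11a and -165 in Ehhadh. Windows of 300 bases, reaching 50 past the start, were matched for 25 of the 31 genes and searched on both strands. GGGTCA was found in 3 of the 25 (Ehhadh, Pex11a and Pex11g) against 15.3% of 27025 genes, and AGGTCA in 4 (Cat, Pex11g, Phyh and Scp2) against 18.1%. The direct repeats NGGTCANNGGTCA, the spacing bound by PPAR, and NGGTCANNNNNGGTCA, the spacing bound by thyroid hormone receptor, were in none of the 25 windows and in 0.248% and 0.0851% of all genes. These letters in this window describe the promoters and do not show binding.

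The first question was how these genes differed between floxed fat with and without T3. Differences were small for nearly all of them. By a rule of size (2-fold or more in FPKM plus 1, with the higher library at 1 FPKM or more), 1 of 31 was lower with T3 and none higher, beside 6.28% of all 15031 genes called in either direction, 2.3% higher and 3.98% lower. That gene was Pxmp2. As deposited, it was also the only member past 1.5-fold on the same scale of FPKM plus 1, beside 19.3% of all genes. The median log2 ratio of FPKM plus 1 was -0.04 for the Pex genes and 0.01 for the enzymes and transporters, whereas the median of all genes compared was -0.21. That shift of all genes moves with the scaling. When libraries were rescaled to a common median, the Pex median was 0.15 and the enzyme median 0.21. Then 23 of 31 genes lay above 0 beside 46.2% of all genes (16 of 31 beside 27.2% before rescaling), and no member reached 2-fold. Past 1.5-fold were then Pex16 (log2 ratio 0.77), Pex11a (0.77), Abcd3 (0.63) and Pxmp2 (-0.92). The share of all genes past it was not counted. The median absolute log2 ratio was then 0.23 for members and 0.23 for all genes, against 0.19 and 0.29 as deposited.

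**Figure D1:**
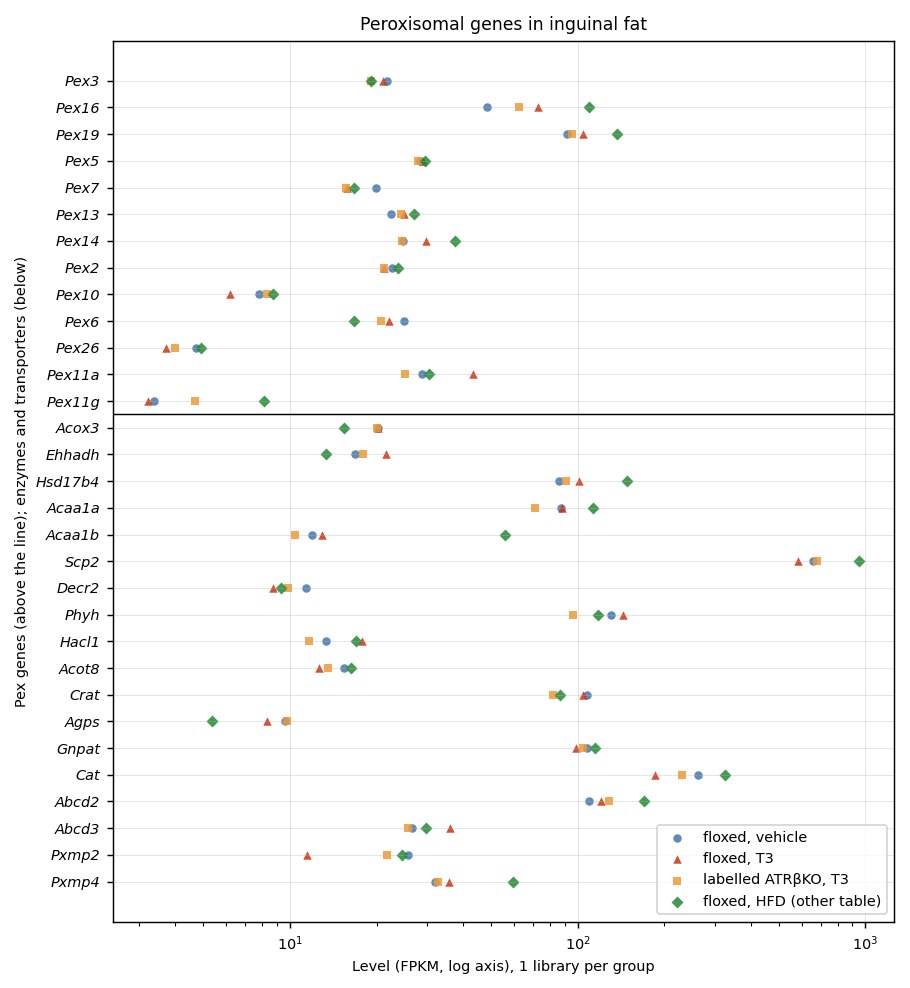
Level of each of the 31 genes in FPKM on a log axis, 1 point per library (floxed vehicle, floxed T3, labelled ATRβKO T3 and floxed HFD, the last from a separate table). Points of a gene lie close together compared with the distance between genes, from Pex11g at 3.22 to 8.11 FPKM to Scp2 at 583 to 949 FPKM.

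Membrane assembly depends on Pex19, the chaperone of new membrane proteins, Pex3, its docking partner, and Pex16. Pex16 stood at 48.5, 72.6 and 62.3 FPKM in the 3 libraries. It was 49.9% higher in floxed T3 than in vehicle, and the labelled ATRβKO (T3) library remained 1.29-fold above vehicle. Pex19 stood at 91.7, 104.5 and 95.4 FPKM, the most abundant of the Pex genes. Pex3 stood at 21.8, 21.1 and 19.1 FPKM. Relative to Pex3 in the same library, Pex16 was 2.22, 3.44 and 3.25 times as abundant, a ratio on which scaling has no bearing.

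Import of enzymes uses Pex5, the receptor for the common carboxy-terminal signal, Pex7, the receptor for the amino-terminal signal carried by thiolase, Phyh and Agps, and the docking proteins Pex13 and Pex14. Pex5 was at 28.3, 29.0 and 27.9 FPKM in the 3 libraries, and Pex13 at 22.5, 24.9 and 24.4. Pex14 was at 24.7, 29.8 and 24.5 FPKM, the floxed T3 library being 1.21-fold above vehicle. Pex7 went the other way, with 19.9 FPKM in vehicle and 15.8 and 15.6 in both T3 libraries, which were nearly equal. Receptors and docking factors thus spread by less than 1.3-fold over the 3 libraries.

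Receptor recycling needs the RING ubiquitin ligases Pex2 and Pex10, the ATPase Pex6 and its membrane anchor Pex26. Pex2 was at 22.6, 21.3 and 21.3 FPKM in the 3 libraries, and Pex6 at 24.98, 22.1 and 20.7. Pex10 was at 7.78, 6.19 and 8.30 FPKM and Pex26 at 4.70, 3.72 and 3.99, so floxed T3 was the lowest library for both. None of the 4 reached 1.4-fold between any pair of these libraries.

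Pex11 proteins elongate and divide peroxisomes, and the 2 measured here differed in pattern. Pex11a was at 28.7, 43.2 and 25.1 FPKM in the 3 libraries. Floxed T3 was thus the high library, 1.51-fold above vehicle and 1.73-fold above the labelled ATRβKO (T3) library, both short of 2-fold. Pex11g was low, at 3.36, 3.22 and 4.66 FPKM, with the labelled ATRβKO (T3) library 1.45-fold above floxed T3. Pex11a lies next to Plin1, the main lipid droplet coat gene, which stood at 635, 577 and 557 FPKM, so the ratio of Pex11a to its neighbour was 0.0452, 0.0750 and 0.0450.

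**Figure D2:**
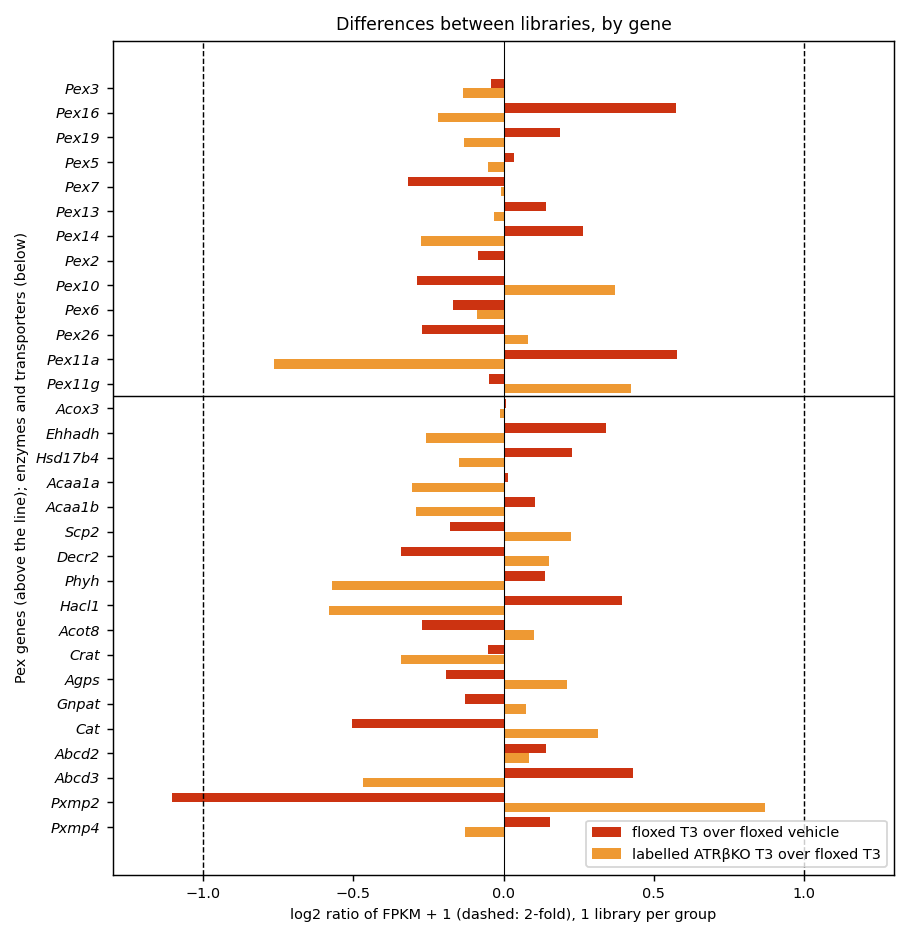
Log2 ratio of FPKM plus 1 for each gene, floxed T3 over floxed vehicle and labelled ATRβKO T3 over floxed T3, 1 library per group, with dashed lines at 2-fold. Only the bar of Pxmp2 for T3 over vehicle passes a line, at -1.10, and as both ratios contain floxed T3 a gene that is high or low there gives bars on opposite sides.

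β-Oxidation in the peroxisome runs through an oxidase, a bifunctional enzyme and a thiolase. Acox3, the oxidase of branched chains, was at 20.2, 20.3 and 20.1 FPKM in the 3 libraries, the highest being 1.01 times the lowest. Ehhadh, the L-bifunctional enzyme, was at 16.8, 21.6 and 17.9 FPKM, 1.28-fold higher in floxed T3 than in vehicle. Hsd17b4, the D-bifunctional enzyme used for very long and branched chains, was at 86.4, 101.3 and 91.2 FPKM. Both bifunctional enzymes were highest in floxed T3, and Ehhadh stayed at 0.195, 0.213 and 0.196 of Hsd17b4.

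Of the thiolases, Acaa1a stood at 87.2, 88.0 and 71.0 FPKM and Acaa1b at 12.0, 12.9 and 10.4, with the labelled ATRβKO (T3) library lowest for both. Scp2, whose gene makes both a thiolase for branched chains and a small sterol carrier protein, was the most abundant of the 31, at 659, 583 and 681 FPKM, or 31.6%, 29.0% and 33.9% of their summed level. Decr2, the reductase for unsaturated chains, was at 11.4, 8.75 and 9.83 FPKM. With the α-oxidation pair described next there were 9 oxidation genes. For T3 over vehicle, 7 of the 9 lay above a log2 ratio of 0, beside 27.2% of all genes. Their median was 0.11 beside -0.21 for all genes, and none was called, beside 6.28%. In β-oxidation alone, 5 of 7 genes lay above 0, with a median of 0.01.

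α-Oxidation removes 1 carbon from phytanic acid, which has a methyl branch that blocks β-oxidation. Phyh, the hydroxylase that starts it, was at 130.1, 143 and 96.2 FPKM in the 3 libraries. Hacl1, the lyase that follows, was at 13.4, 17.8 and 11.6 FPKM. For both enzymes floxed T3 was highest and the labelled ATRβKO (T3) library lowest, 0.672 and 0.651 times floxed T3, while T3 over vehicle was 1.10-fold and 1.34-fold.

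Ether lipid synthesis starts inside the peroxisome with Gnpat, which acylates dihydroxyacetone phosphate, and Agps, which puts in the ether bond. Gnpat was at 108, 98.7 and 103.9 FPKM in the 3 libraries, and Agps at 9.60, 8.29 and 9.74. Both were lowest in floxed T3, by less than 1.2-fold, so the ether lipid pair and the oxidation genes had medians on opposite sides of 0 as deposited (-0.16 and 0.11). After rescaling to a common median these were 0.03 and 0.29.

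Cat, the catalase that splits hydrogen peroxide, was at 263, 185 and 229.9 FPKM in the 3 libraries, with floxed T3 at 0.704 of vehicle. Acot8, a thioesterase that frees acids from acyl-CoA, was at 15.4, 12.6 and 13.6 FPKM. Crat, the carnitine acetyltransferase of peroxisomes and mitochondria, was at 108.1, 104.3 and 82.0 FPKM. Cat and Acot8 were lowest in floxed T3 and Crat in the library labelled ATRβKO (T3).

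The membrane held both the gene that differed most and some that differed little. Pxmp2, which forms a channel for small solutes, was at 25.8, 11.5 and 21.8 FPKM in the 3 libraries. Floxed T3 stood apart from both others, 2.25-fold below vehicle, and the labelled ATRβKO (T3) library was 1.90-fold above floxed T3. The log2 ratio of -1.10 was -0.92 after median rescaling, -0.90 after rescaling by trimmed means and -0.99 without the 50 most abundant genes, so the call was lost under each. The summed skeletal muscle, T cell, B cell, macrophage, fibroblast and mammary epithelial markers, given above, were also lowest in floxed T3 of the 3 libraries. So was the adipocyte sum, in which Cfd differed most (11233, 4783 and 8279 FPKM). For T3 over vehicle the 10 adipocyte markers had a median log2 ratio of -0.11, beside -0.21 for all genes. The mammary sum was low, and 1 of its 6 markers could be compared. The part of these cells in the value of Pxmp2 was not tested.

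Abcd3, an ABC transporter that carries branched-chain and bile acid intermediates into the organelle, was at 26.5, 36.1 and 25.8 FPKM in the 3 libraries, so floxed T3 was high by 1.36-fold over vehicle. Abcd2, its relative for very long chains that is known for high expression in fat, was at 109, 120.7 and 128 FPKM. Pxmp4, a membrane protein of less well known role, was at 32.0, 35.7 and 32.6 FPKM.

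**Figure D3:**
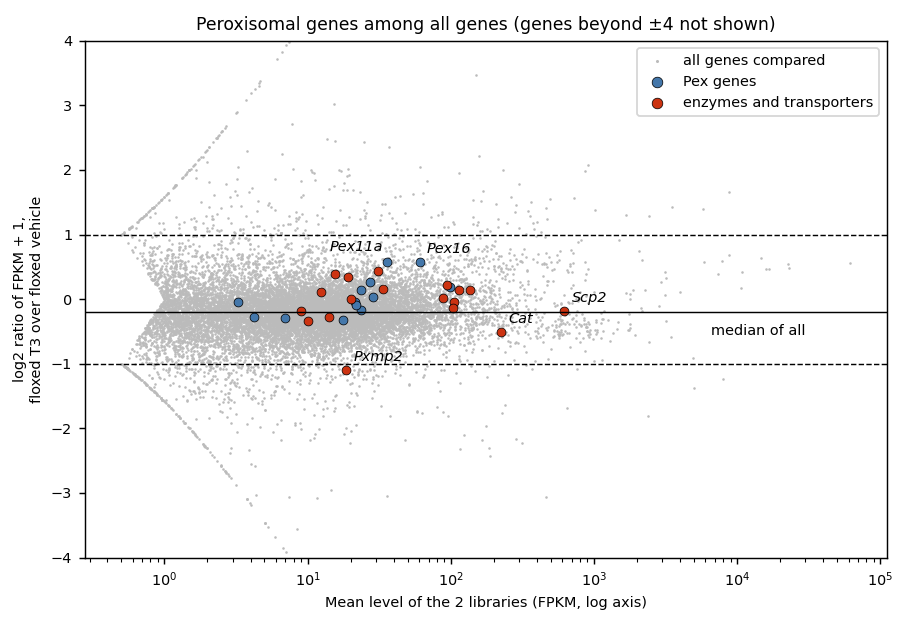
Log2 ratio of FPKM plus 1, floxed T3 over floxed vehicle, against the mean level of both libraries (log axis), for the 15031 genes compared (grey, those beyond 4 in either direction not shown) and the 31 peroxisomal genes. Dashed lines mark 2-fold and the solid line the median of all genes, -0.21. The peroxisomal genes run from -1.10 (Pxmp2, past the lower dashed line) to 0.58 (Pex11a), and 16 of 31 lie above 0, beside 27.2% of all genes.

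The second question was how fat labelled as lacking the receptor differed when both genotypes received T3. No member was called in either direction, beside 6.06% of 14988 genes, 4.04% higher and 2.02% lower. The median log2 ratio was -0.05 for the Pex genes and -0.07 for the enzymes and transporters, beside 0.18 for all genes, and 11 of 31 members lay above 0 beside 70.3%. After median rescaling these were -0.22 and -0.24, and 6 of 31 members lay above 0 beside 53.4% of all genes. At 1.5-fold, as deposited, 2 members were past the threshold, Pxmp2 higher and Pex11a lower, beside 18.5% of all genes. After median rescaling Pxmp2 (0.71) was past it higher, and Pex11a (-0.93), Hacl1 (-0.74), Phyh (-0.74) and Abcd3 (-0.64) lower. The share of all genes past it was not counted after rescaling. The median absolute log2 ratio was then 0.29 for members beside 0.23 for all genes, against 0.21 and 0.28 as deposited. This comparison shares the floxed T3 library with the first, so a gene that is high there appears higher in one and lower in the other.

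Read over all 3 libraries at once, floxed T3 was the highest for 15 of 31 genes and the lowest for 10, beside 19.9% and 61.8% of 15439 genes. The 15 were Pex16, Pex19, Pex5, Pex13, Pex14, Pex11a, Acox3, Ehhadh, Hsd17b4, Acaa1a, Acaa1b, Phyh, Hacl1, Abcd3 and Pxmp4. The 10 were Pex10, Pex26, Pex11g, Scp2, Decr2, Acot8, Agps, Gnpat, Cat and Pxmp2. Some of these places rest on differences smaller than counting alone can give. Against vehicle, floxed T3 differed by 0.595% in Acox3, 0.940% in Acaa1a, 2.58% in Pex5 and -4.17% in Pex11g. The relative SD from counting in their lowest library was 3.20%, 2.45%, 3.03% and 9.22%. After median rescaling the counts were 21 and 4, beside 35.1% and 41.6%. The difference between the highest and lowest of the 3 libraries was mostly small, with a median of 1.24-fold for the 31 genes. It was 1.32-fold for 13426 genes at 1 FPKM or more in all 3. Of the members, 28 of 31 stayed under 1.5-fold (69.8% of those genes). These sets are not matched in level, as the lowest member value was 3.22 FPKM. The ratios are of values as deposited, without a pseudocount, so they include the shift of all genes in floxed T3 given above.

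Between the library labelled ATRβKO (T3) and floxed vehicle no member was called, beside 3.62% of 15175 genes, 1.83% higher and 1.79% lower, nor at 1.5-fold, beside 8.67%. The medians were -0.02 for the Pex genes and -0.11 for the others. Phyh (0.740 times vehicle), Crat (0.759) and Pex7 (0.787) were furthest below vehicle, and Pex11g (1.39) and Pex16 (1.29) furthest above.

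Set against each other, biogenesis factors and enzymes differed little. The summed level of the 13 Pex genes was 349, 397 and 353 FPKM in the 3 libraries, and that of the 18 others was 1734, 1610 and 1657. The ratio of the sums was 0.201, 0.247 and 0.213, and without Scp2 it was 0.325, 0.387 and 0.362, highest in floxed T3 both ways. Pex16, Pex11a and Pex19 had the largest differences in FPKM within the Pex sum between floxed T3 and vehicle.

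Further genes linked to the peroxisome were described in the same way, and some of them, such as Acaca, act mainly elsewhere. Of 74 further names, 72 were in the table and 58 could be compared for T3 over vehicle, where 2 were higher and none lower beside 2.3% and 3.98% of all genes, with a median log2 ratio of 0.05. The 2 were Acaca (189, 537 and 229.7 FPKM), a cytosolic enzyme of fatty acid synthesis, and Pmvk (46.5, 116 and 46.3), a kinase of the sterol pathway, so neither is an oxidation enzyme. For labelled ATRβKO (T3) over floxed T3, 5 of 59 were lower and none higher, namely these and Slc27a2, Ddo and Nos2, beside 2.02% lower and 4.04% higher of all genes. The deposited table's own annotation put 139 genes in the peroxisome, 28 of the 31 members among them. Of the 64 other such genes compared, 3 were higher with T3, which were Tkt, Pmvk and Fdps, and none lower, beside 2.3% and 3.98% of all genes. Of 66 in the second comparison 5 were lower, beside 2.02% of all genes, which were these and Slc27a2 and Ddo. This list and its genes were chosen after their values were seen.

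Genes that answer PPARα outside the peroxisome gave other values. Of 24 listed, 20 could be compared, and 6 were higher with T3 and none lower (Cpt1b, Pdk4, Plin2, Hadhb, Ucp1 and Fabp3), beside 2.3% and 3.98% of all genes, with a median log2 ratio of 0.63. The brown or beige fat markers, which share Ucp1 with the list, summed highest in floxed T3 as given above, and their part in these values was not tested. Hadhb, a subunit of the mitochondrial enzyme that does the work of Ehhadh and thiolase, was at 242, 517 and 206 FPKM in the 3 libraries, a 2.13-fold difference with T3, while its partner Hadha was at 146, 258 and 127. Ehhadh and Acaa1a, the peroxisomal counterparts, were 1.28-fold and 1.01-fold. For labelled ATRβKO (T3) over floxed T3, 9 of 19 of this list were lower and 1, Vnn1, higher, beside 2.02% and 4.04% of all genes. Among 14 receptors and coregulators none was called, and Ppara itself was at 5.15, 5.37 and 2.79 FPKM and Pparg at 138, 136 and 98.8. No test set these lists against the peroxisomal genes.

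On HFD, levels in floxed fat come from the other table, so only the place of a gene within its own library and ratios inside a library are set side by side. The mice differed in diet and injections. Among the 14563 genes below, markers are compared by median percentile, floxed vehicle first and floxed HFD second. T cell markers stood at 74.0 and 8.33, B cell markers at 88.7 and 5.20, and brown or beige fat markers at 72.3 and 43.1. Muscle markers stood at 97.2 and 99.2, erythroid at 97.0 and 98.5, adipocyte at 99.3 and 99.6 and macrophage at 91.1 and 89.6. Places close to the top leave little room to differ. The part of these cells in the HFD values was not tested. Over 14563 genes, the median percentile of the Pex genes was 70.5 in floxed vehicle and 73.7 in floxed HFD, and that of the enzymes and transporters 77.0 and 88.3. Taken gene by gene, the median difference was 3.24 points for the Pex genes, of which 10 of 13 were higher on HFD. It was 0.386 points for the enzymes and transporters, of which 12 of 18 were higher. Some of these differences were very small, such as 0.027 points in Cat and 0.069 in Decr2. The share of all 14563 genes that stood higher on HFD was not counted, so these counts do not show a rise of peroxisomal genes. Of the 31 genes, 24 kept their rank among themselves to within 3 places, and the others were Acaa1b, Pex6, Crat, Hsd17b4, Hacl1, Acox3 and Pex14.

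The genes whose percentile differed most were Acaa1b and Pex11g. Acaa1b was at 55.7 FPKM in floxed HFD, percentile 87.9 against 51.6 in floxed vehicle, and its ratio to Acaa1a (113 FPKM) was 0.494 on HFD against 0.137, 0.147 and 0.146 in the 3 libraries of the first table. The stretches shared by this pair, and those that Acaa1b shares with Dlec1, given above, limit that ratio in every library. Pex11g was at 8.11 FPKM, percentile 46.4 against 20.1, and Hacl1 at 17.0, percentile 66.1 against 54.7. Pex14, Pxmp4 and Pex10 stood 9.73, 9.39 and 9.26 points higher on HFD than in vehicle, and the difference for Pex6 was -7.68 points. Agps also lay on the other side, at 5.37 FPKM, percentile 36.0 against 45.2, which was 0.0469 of Gnpat (114 FPKM) against 0.0888 in vehicle.

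Other ratios inside the HFD library also stood away from those of the first table. Ehhadh was at 13.4 FPKM and Hsd17b4 at 149, a ratio of 0.0898 against 0.195 to 0.213. Pex16 was at 109.7 FPKM and Pex3 at 19.1, a ratio of 5.74 against 2.22 to 3.44. The ratio of the Pex sum to the enzyme sum, 0.207, lay inside the range of the first table.

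The remaining Pex genes on HFD were Pex19 at 137 FPKM, Pex14 at 37.6, Pex11a at 30.5, Pex5 at 29.4, Pex13 at 26.9, Pex2 at 23.7, Pex7 at 16.7, Pex6 at 16.6, Pex10 at 8.76 and Pex26 at 4.91. Their order was close to that in vehicle, where Pex19 and Pex16 also led and Pex10, Pex26 and Pex11g were lowest. Of the enzymes and membrane proteins, Scp2 was at 949 FPKM, Cat at 326, Abcd2 at 170, Phyh at 117, Crat at 86.6, Pxmp4 at 59.7, Abcd3 at 29.6, Pxmp2 at 24.6, Acot8 at 16.3, Acox3 at 15.4 and Decr2 at 9.31. Scp2 and Cat held the first and second place in every one of the 4 libraries.

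**Figure D4:**
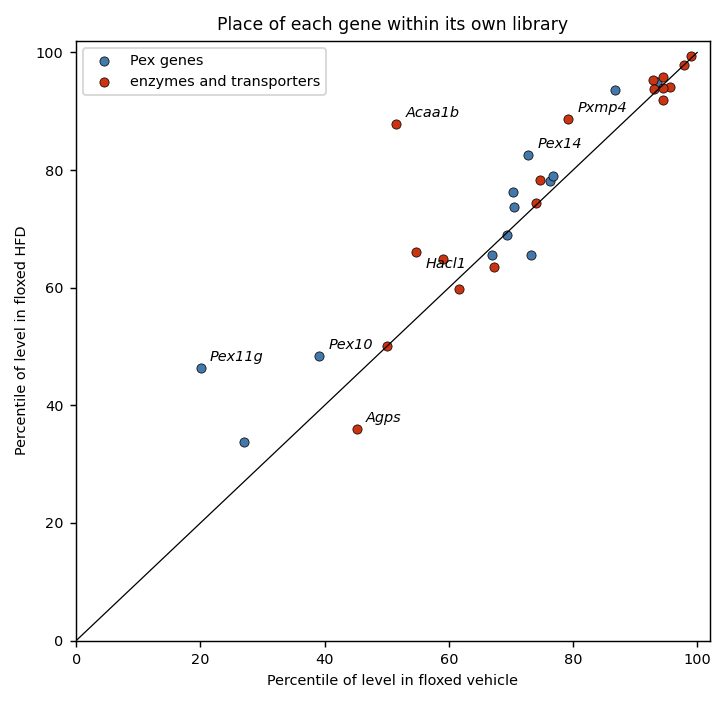
Percentile of each gene's FPKM among 14563 genes within floxed vehicle (horizontal) and within floxed HFD (vertical), 1 library each, with the line of equal percentile. Genes more than 9 points off the line are named, and Acaa1b (51.6 and 87.9) and Pex11g (20.1 and 46.4) lie farthest above it.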

How the data were processed

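Per the submitters' processing notes the tools were HISAT2 and StringTie and the build GRCm39, without versions. The deposited values were taken as FPKM, a unit that neither file headers nor labels name, since values are not whole and library sums differ (748645 to 787969 in the vehicle and T3 table, 757606 for floxed HFD, 1891065 for the library labelled ATRβKO (HFD)). No counts were used. Depth was estimated from single-exon genes of GENCODE M21, and the estimate was tested on simulated data.

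After adding a pseudocount of 1 to each FPKM, log2 ratios were computed within a table and never across tables, in Python 3.11.15 with pandas 2.3.3. In the second table they were computed only for labelled ATRβKO (HFD) over floxed HFD, which is flagged below. All 31 members are named. From the further genes linked to the peroxisome and the receptor and marker lists, genes called at 2-fold are named. The higher library had to be at 1 FPKM or more, with up to 6 a list and comparison, plus Thrb. Called genes of the marker lists other than Cfd are given only within summed levels. The genes named of the PPARα response list, Tkt, Fdps, Adipoq, Fabp4, Plin1, Krt14, Elf5, Ppara and Pparg fall outside this rule and were chosen after their values were seen. Members and lists were chosen with earlier results of these data known. Alternatives were a pseudocount of 0.1 or 5, a floor of 5 FPKM or none, median rescaling, rescaling by trimmed means of M values, leaving out the 50 most abundant genes, 1.5-fold and 4-fold rules and, chosen after seeing the data, a common total. Sequences came from GENCODE M21 and RefSeq on GRCm38, another build than the files.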

Additional observations from a re-analysis of the deposited data

Results flagged for a closer look

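The library labelled ATRβKO (HFD) was in no comparison above. There 4 of the 31 genes were 2-fold or more above floxed HFD and 20 below. Of all genes 79.7% were called in either direction and 47.7% were higher. The median log2 ratio was -1.82 for the 31 genes beside 0.80 for all genes. Pex16 was at 380 FPKM against 109.7 in floxed HFD, Agps at 172 against 5.37, Hacl1 at 95.1 against 17.0 and Ehhadh at 92.9 against 13.4. These stand out because they are high in a library that was otherwise not used. Thrb, the gene targeted in ATRβKO mice, was at 170 FPKM in that library against 4.38 in floxed HFD, and the reason was not tested. The library labelled ATRβKO (HFD) stands apart from the others in its summed FPKM, 1891065 against 757606 in floxed HFD, and in most genes. The levels, ratios and calls of this paragraph are as deposited and were not rescaled for that difference, which bears on all of them.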

How the results depend on the processing

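The call of Pxmp2 with T3, 1 of 31 as reported, was lost (0 called) with a pseudocount of 5, after median or trimmed-mean rescaling, without the 50 most abundant genes and at 4-fold. It held with a pseudocount of 0.1, with a floor of 5 or none, at 1.5-fold and at a common total. For labelled ATRβKO (T3) over floxed T3, 0 were called except at 1.5-fold as deposited, with 2. The class medians moved by 0.1 or more on the log2 scale with scaling. For T3 over vehicle the Pex median was 0.15, 0.17 and 0.074 and the enzyme and transporter median 0.21, 0.23 and 0.13 under median rescaling, trimmed means and without the 50 most abundant genes. For labelled ATRβKO (T3) over floxed T3 the same were -0.22, -0.24 and -0.18, and -0.24, -0.26 and -0.20. At a common total the medians were -0.10 and -0.05 for T3 over vehicle and 0.02 and 0.00084 for labelled ATRβKO (T3) over floxed T3. The sign of a class median therefore depends on the scaling. No paired analysis was possible because each group has 1 library, and no library could be left out for the same reason. Depth limits Pex11g, Pex10, Pxmp2, Acot8 and Pex26 most, with about 118, 135, 154, 187 and 196 fragments in the lowest library.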
